A study of Mus musculus with 26 samples.

Results

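The genes described here were 10 genes of bicarbonate transport and carbon dioxide hydration in the mouse choroid plexus (ChP), chosen by symbol: the bicarbonate transporters Slc4a2, Slc4a3, Slc4a4, Slc4a5, Slc4a7 and Slc4a10, their relative Slc4a11, and the carbonic anhydrases Car2, Car12 and Car14. All 10 were present among the 55416 genes of the count table of 24 wild-type mice, all 10 were among the 13697 genes that were tested, and all 10 were present in the table of 2 knockout mice. The wild-type animals were adult male C57Bl6J mice, 12 with sham surgery (Ctrl) and 12 with a surgical lesion of the suprachiasmatic nuclei (SCNx), the seat of the master circadian clock. After resynchronization to a light-dark cycle they were kept in constant darkness, and 1 mouse per group was killed every 4 h from circadian time (CT) 0 to CT44. The knockout (KO) animals were adult male FoxJ1-ERT2-Cre+/-; Bmal1fl/fl mice fed tamoxifen in a light-dark cycle, 1 killed at Zeitgeber time (ZT) 7 and 1 at ZT18. FoxJ1-driven Cre acts in every epithelial cell with motile cilia and not in ChP alone, no Cre-negative or wild-type littermates were analysed here, and KO tissue was cut out by laser capture from frozen sections and sequenced with another kit than the dissected wild-type tissue of the 4th ventricle. Genotype and sample preparation therefore cannot be told apart in the KO libraries.

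The ChP epithelium secretes cerebrospinal fluid, and bicarbonate is among the ions that it moves from blood to the ventricle. Carbonic anhydrases turn carbon dioxide and water into bicarbonate and protons inside the cell and at its surface, and transporters of the SLC4 family carry bicarbonate across the basolateral and the apical membrane in exchange for chloride or together with sodium. Slc4a11 belongs to the same family by sequence but is known as a transporter of protons rather than of bicarbonate.

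Total counts per library were 38751162 to 47335226 in Ctrl, 41807000 to 49527614 in SCNx, and 17425176 and 18059213 in KO. The summed level of 6 epithelial markers (Ttr, Folr1, Kl, Otx2, Aqp1, Clic6) was 89211 to 102981 counts per 1000000 counts of the library (CPM) in Ctrl. In SCNx it ran from 61463 CPM at CT32 to 101233 CPM at CT36, and in KO it was 45551 and 51098 CPM. Some libraries stood apart in other markers. The sum of 4 astrocyte markers (Gfap, Aqp4, Slc1a2, Gja1) was 641 CPM in Ctrl CT4 and 633 CPM in SCNx CT32, against at most 54.0 and 77.4 CPM in the other libraries of each group, and the sum of 4 hepatocyte markers (Alb, Apoa2, Fgb, Serpina1c) was 1293 CPM in Ctrl CT16 and 9511 CPM in SCNx CT0, against at most 20.9 and 9.46 CPM. Test results that rest on these 4 libraries are given with and without them. Mean levels, coefficients of variation and wild-type day-night differences were not taken again without all of them. SCNx CT44 stood apart in 4 erythrocyte markers (Hba-a1, Hba-a2, Hbb-bs, Alas2), with 5490 CPM against at most 1189 CPM and a median of 438 CPM in SCNx. In these bulk samples, fewer cells of a type and less RNA per cell cannot be told apart.

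The 10 genes fell into an abundant and a scarce set. In Ctrl, Slc4a10, the sodium-dependent bicarbonate transporter of the basolateral membrane, had the highest count level with 1448 ± 128 CPM (SD, n = 12). Slc4a2, the anion exchanger AE2, had 1271 ± 111 CPM, Car12, a membrane-bound carbonic anhydrase, had 1116 ± 121 CPM, and Slc4a5, the electrogenic sodium-bicarbonate cotransporter NBCe2 of the apical membrane, had 1074 ± 97.7 CPM. Cytosolic Car2 had 525 ± 44.8 CPM and membrane-bound Car14 had 223 ± 36.9 CPM. The other 4 genes were all below 50 CPM on average: Slc4a3, the anion exchanger AE3, had 39.2 ± 4.18 CPM, Slc4a7, the electroneutral cotransporter NBCn1, had 19.0 ± 2.14 CPM, Slc4a11 had 8.76 ± 1.47 CPM and Slc4a4, the electrogenic cotransporter NBCe1, had 7.87 ± 7.84 CPM.

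Since longer transcripts collect more reads, the order of the genes was also taken per kilobase of the principal GENCODE transcript, in CPM per kb in Ctrl. On this scale Car12 (300 ± 32.7 CPM per kb), Slc4a2 (298 ± 25.9) and Car2 (294 ± 25.0) led, and neither neighbour in this order differed by more than the SD between mice. Slc4a10 (264 ± 23.3) lay a little over 1 SD below Car2, and Slc4a5 (210 ± 19.1) and Car14 (131 ± 21.6) followed, each separated from its neighbour above by more than the SD. The 4 scarce genes were 5.45 (Slc4a3), 2.74 (Slc4a11), 2.33 (Slc4a7) and 0.993 CPM per kb (Slc4a4), and Slc4a7 lay within 1 SD of Slc4a11. When the length of all exons merged was used, the order of Slc4a2 and Car2 was exchanged. In SCNx the same 6 genes led, with Car12 at 295 ± 36.7 and Car14 at 109 ± 11.9 CPM per kb.

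**Figure D1:**
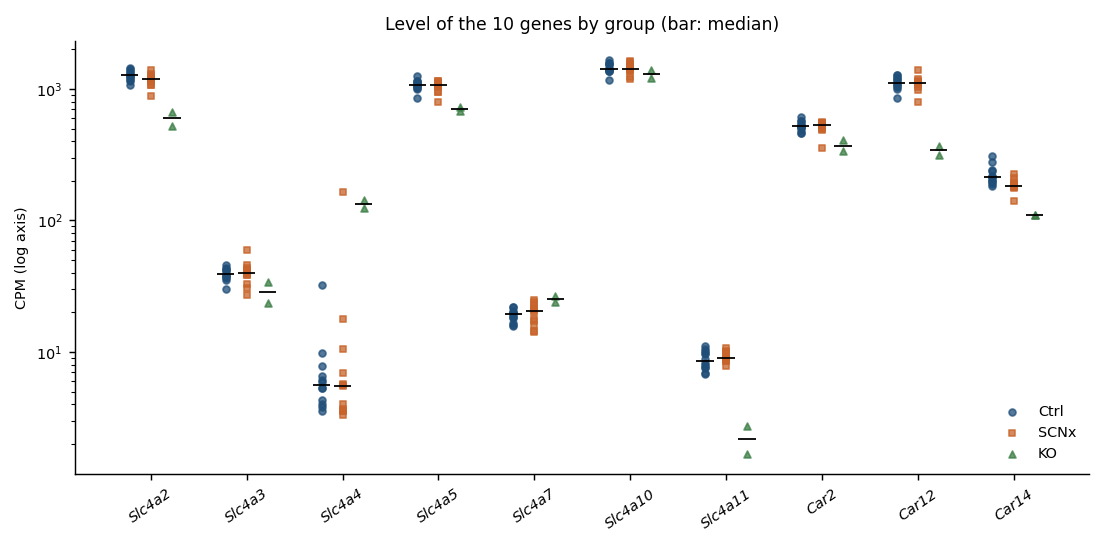
Level of each gene in CPM (log axis) in the 12 Ctrl mice (circles), 12 SCNx mice (squares) and 2 KO mice (triangles), with a bar at the group median. The 6 abundant genes lie above 100 CPM in every Ctrl and SCNx mouse, and Slc4a4 has single mice far above its group (32.1 CPM in Ctrl CT4 and 165 CPM in SCNx CT32) and both KO mice above 120 CPM.

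The first comparison asked whether loss of the SCN changed the level of the genes, with all circadian times of a group pooled. None of the 10 genes passed an adjusted p of 0.05 (edgeR quasi-likelihood test), and neither did any of all genes tested (0%). DESeq2 (0.102% of all genes called) and limma-trend (0%) called none of the 10 either. At an unadjusted p under 0.05 there was 1 of the 10 genes, Car14, against 9.37% of all genes. The fitted change lay below 0 for 6 of the 10 genes, against 43.5% of all genes, and its median was -0.02 on the log2 scale for the 10 genes and 0.01 for all genes.

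Car14 had the lowest unadjusted p of the 10. Its lowest, median and highest values were 183, 215 and 307 CPM in Ctrl and 140, 184 and 224 CPM in SCNx. The groups overlapped, and the highest SCNx mouse (CT8) was exceeded by 4 Ctrl mice, those of CT12, CT16, CT32 and CT36. The fitted change was -0.26 ± 0.08 (log2, SE) with a 95% interval from -0.42 to -0.10, a level in SCNx of 0.833 of that in Ctrl, and adjusted p = 0.366 (edgeR). The change kept its sign without any single library, between -0.29 and -0.22. The lowest value of all, in SCNx CT32, was from the library with the lowest epithelial marker sum, and without that library the change was -0.24.

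Slc4a2 came next among the abundant genes, with 1070, 1270 and 1444 CPM as the lowest, median and highest value in Ctrl and 889, 1189 and 1384 CPM in SCNx. The groups overlapped almost throughout. The change was -0.11 ± 0.06 (log2, SE; interval -0.24 to 0.01; adjusted p = 0.568, edgeR). For Slc4a5 (854, 1075 and 1243 CPM in Ctrl, 789, 1068 and 1147 CPM in SCNx), Slc4a10 (1178, 1424 and 1647 CPM against 1197, 1416 and 1641 CPM), Car2 (461, 519 and 613 CPM against 356, 535 and 563 CPM) and Car12 (855, 1116 and 1277 CPM against 795, 1102 and 1387 CPM) the medians of both groups nearly coincided. Their intervals ran from -0.17 to 0.07 for Slc4a5, from -0.13 to 0.09 for Slc4a10, from -0.15 to 0.10 for Car2 and from -0.17 to 0.12 for Car12, all in log2 units, so that a change of over 0.2 in either direction lay outside each of them. Car2 and Car12 turned to slightly positive changes of 0.01 each without SCNx CT32, and Slc4a10 to 0.0012 without SCNx CT0.

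Among the scarce genes, Slc4a3 ranged from 30.1 over 38.8 to 45.6 CPM in Ctrl and from 27.0 over 39.7 to 59.4 CPM in SCNx, and Slc4a7 from 15.7 over 19.3 to 22.1 CPM in Ctrl and from 14.1 over 20.4 to 24.6 CPM in SCNx. The spread of both was wider in SCNx, with coefficients of variation of 20.5% against 10.7% for Slc4a3 and 18.6% against 11.3% for Slc4a7. SCNx CT32 held the highest value of both, 59.4 CPM for Slc4a3 (second highest 45.9) and 24.6 CPM for Slc4a7 (second highest 24.1). The spread was not computed without that library, and the difference in spread was not tested. The intervals of their level changes were -0.16 to 0.22 and -0.14 to 0.23 (log2), and that of Slc4a11 was -0.09 to 0.23. Without SCNx CT32 the change of Slc4a3 turned from 0.03 to -0.04.

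**Figure D2:**
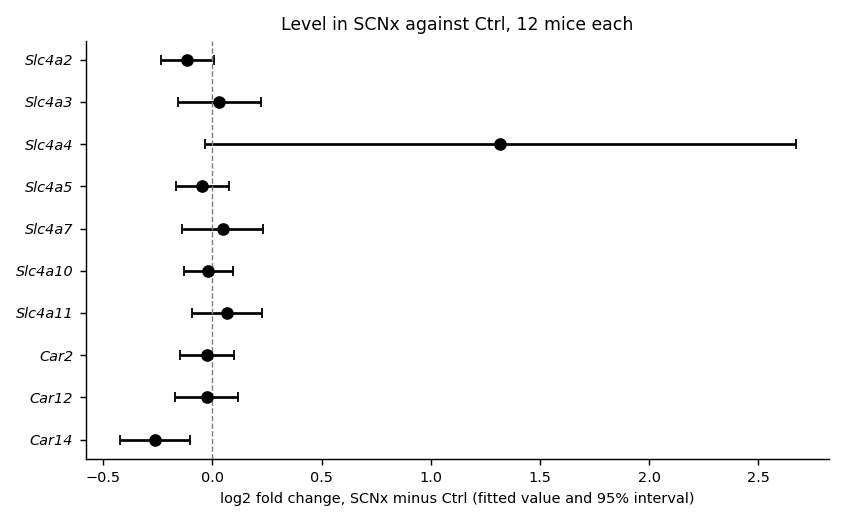
Fitted log2 fold change, SCNx minus Ctrl, with its 95% interval for each of the 10 genes (12 mice per group). The interval of Car14 (-0.42 to -0.10) lies below 0 before adjustment over all genes, and that of Slc4a4 (-0.04 to 2.67) is by far the widest of the 10.

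The wide interval of Slc4a4 came from single mice. In Ctrl its lowest, median and highest values were 3.54, 5.61 and 32.1 CPM, and in SCNx 3.31, 5.55 and 165 CPM. The highest values were in Ctrl CT4 and SCNx CT32, where the second highest were 9.77 CPM (Ctrl CT16) and 17.9 CPM (SCNx CT12). The fitted change was 1.32 ± 0.66 (log2, SE; adjusted p = 0.553, edgeR), whereas it was -0.30 without SCNx CT32, 1.81 without Ctrl CT4 and 0.17 when neither was used. These 2 libraries also had the highest astrocyte marker sums (633 CPM in the SCNx and 641 CPM in the Ctrl library), and SCNx CT12, the third highest in Slc4a4, had the third highest sum (77.4 CPM). The sum of 5 neuronal markers (Snap25, Rbfox3, Syt1, Gabra6, Pcp2) was highest in the same libraries, at 229 CPM in Ctrl CT4 and 280 CPM in SCNx CT32, against medians of 13.2 and 12.7 CPM. Gabra6 and Pcp2 added little to it, at 0.33 and 0.38 CPM in Ctrl CT4 and 0.07 and 0.04 CPM in SCNx CT32. NBCe1 is known to be strongly expressed in astrocytes. In both KO libraries Slc4a4 was at 125 and 142 CPM, where the astrocyte sums were 670 and 765 CPM. The part of astrocyte RNA in these values was not tested.

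**Figure D3:**
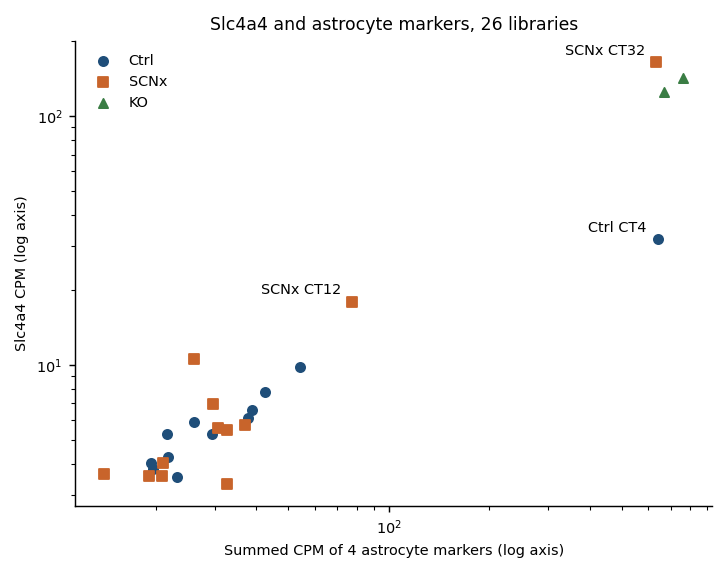
Slc4a4 in CPM against the summed CPM of 4 astrocyte markers (both log axes) in the 12 Ctrl, 12 SCNx and 2 KO libraries. Ctrl CT4, SCNx CT32 and both KO libraries hold over 600 CPM of the markers and over 30 CPM of Slc4a4, and the other 22 libraries hold under 80 and under 20 CPM.

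SCNx CT32 had the lowest level of all 24 wild-type libraries for 5 of the 10 genes (Slc4a2, Slc4a5, Car2, Car12 and Car14) and the highest for 3 (Slc4a3, Slc4a4 and Slc4a7). No other library held more than 1 lowest or 1 highest value. The library also had the lowest epithelial marker sum, 61463 CPM against a SCNx median of 89316 CPM. The part of tissue composition in its values was not tested.

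The second comparison asked which of the genes followed a 24 h rhythm over the 2 cycles, by a cosine curve for each group. Both curves were part of 1 fit of all 24 wild-type libraries, which shared scaling, filter and 1 estimate of the spread. A Ctrl call therefore does not rest on Ctrl mice alone, and leaving out a SCNx library can change it. The clock itself was visible in Ctrl: the log2 amplitude, the distance from the mean of the curve to its peak, was 2.23 for Arntl (Bmal1, the positive arm of the clock), 2.45 for Nr1d1 (its repressor) and 2.04 for Dbp (a clock-controlled factor), each with adjusted p under 0.05. Their amplitudes in SCNx were 0.48, 0.29 and 0.66, none of them past the threshold. Amplitudes and peak times here and below are from the edgeR fit. Each SE printed with them is from a separate least-squares cosine fit to log2 CPM in that group. Such an SE describes scatter and is not the error of the printed estimate itself.

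In Ctrl, 2 of the 10 genes were rhythmic at an adjusted p under 0.05, Slc4a11 and Car14, against 10.7% of all genes. In SCNx none of the 10 passed, as none of all genes did (0%). DESeq2 (3.15% of all genes called) and limma-trend (0%) called none of the 10 either. At an unadjusted p under 0.05 there was 1 of the 10 in SCNx, Slc4a4, against 14.8% of all genes, and without SCNx CT32 the unadjusted p of Slc4a4 was 0.65. The rhythm itself differed between the groups for 1 of the 10 genes, Slc4a11, against 2.12% of all genes. The fitted amplitude was larger in Ctrl for 6 of the 10, against 55.3% of all genes. Its median over the 10 genes was 0.12 in Ctrl and 0.09 in SCNx (log2), beside 0.11 and 0.09 for all genes.

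Slc4a11 was highest in subjective day. In the Ctrl mice of CT0, CT4 and CT8 it was at 10.2, 9.84 and 8.79 CPM, and a cycle later, at CT24, CT28 and CT32, at 11.1, 9.67 and 10.6 CPM. In the Ctrl mice of CT12, CT16 and CT20 it was at 6.82, 7.5 and 8.17 CPM, and at CT36, CT40 and CT44 at 7.89, 7.66 and 6.95 CPM. Each of the 6 daytime mice was thus above each of the 6 night-time mice. In SCNx the lowest, median and highest values were 7.84, 8.94 and 10.7 CPM, the 2 extremes falling 4 h apart at CT32 and CT36. The Ctrl amplitude was 0.28 ± 0.06 (log2, SE), a ratio of peak to trough of 1.47, with a peak at 3.25 ± 0.825 h and adjusted p = 0.00657 (edgeR). The SCNx amplitude was 0.11 ± 0.05 with a peak at 17.2 h and adjusted p = 0.495, and the difference between the rhythms had adjusted p = 0.0311. The counts behind these values were 276 to 537 per Ctrl library. The Ctrl rhythm was called when any single library was left out (adjusted p 0.00424 to 0.0175), but the call was lost with no filter on low counts (adjusted p = 0.0981, edgeR) and in the rank test (q = 0.135 with 1000000 random orders, a permutation test). The difference between the rhythms missed the threshold in 9 of 35 alternatives. These were the fits without Ctrl CT12, SCNx CT0, SCNx CT40 or the erythrocyte-rich SCNx CT44 (0.0507), with adjusted p up to 0.0570, and those without Ctrl CT16 and SCNx CT0 (0.0650), with a linear trend (0.0703), with no filter on low counts (0.168), with circadian time as a block (0.218) and with scaling factors taken over all genes (0.0520).

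Car14, the carbonic anhydrase at the cell surface, peaked at the turn from subjective day to night. In Ctrl it was at 276 CPM at CT12 and 307 CPM at CT36, the 2 highest values, and at 243 CPM at CT32 and 236 CPM at CT16. Its lowest Ctrl values were 183 CPM at CT4 and 191 CPM at CT28, so that both cycles had their peak and their trough at the same phase. In SCNx it was at 187 CPM at CT12 and 211 CPM at CT36, where the highest value was 224 CPM at CT8. The Ctrl amplitude was 0.25 ± 0.06 (log2, SE), a ratio of peak to trough of 1.41, with a peak at 12.4 ± 0.911 h and adjusted p = 0.0294 (edgeR). In SCNx it was 0.06 ± 0.07 (adjusted p = 0.816), and the test of the difference gave adjusted p = 0.427, so that the rhythms were not shown to differ. The Ctrl call was lost without CT12, CT28, CT36 or CT44, with adjusted p up to 0.122, and with scaling factors taken over all genes (0.0557). Ctrl CT36 and CT12 were also 2 of the 4 Ctrl mice that exceeded every SCNx mouse in the level comparison.

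The other genes were not called rhythmic in Ctrl. Car12 was at 1271 and 1277 CPM at CT8 and CT32, its 2 highest Ctrl values, and at 1002 and 855 CPM at CT16 and CT44, its 2 lowest, with an amplitude of 0.16 ± 0.05, a fitted peak at 6.12 h and adjusted p = 0.228. Slc4a5 had an amplitude of 0.13 ± 0.04 with a fitted peak at 8.33 h (adjusted p = 0.293), Slc4a10 of 0.10 ± 0.05 at 8.30 h (adjusted p = 0.423) and Slc4a2 of 0.09 ± 0.05 at 6.69 h (adjusted p = 0.571). Car2 had an amplitude of 0.11 ± 0.04 and a fitted peak at 19.1 h (adjusted p = 0.359), and Slc4a7 and Slc4a3 had amplitudes of 0.11 ± 0.06 and 0.05 ± 0.07 (adjusted p 0.674 and 0.928). For Slc4a2, Slc4a5, Slc4a10 and Car12 the lowest Ctrl value was in the same mouse, CT44, which held the highest Ctrl value of Car2.

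These calls depended on the libraries that stood apart. Without SCNx CT32 there were 3 rhythmic genes in Ctrl, Slc4a11, Car14 and Car2 (Car2 at adjusted p = 0.0482), where 16.6% of all genes were called. Without Ctrl CT4 and SCNx CT32 there were 3, Slc4a11, Car14 and Car12, against 16.5% of all genes. Without the 4 libraries rich in astrocyte or hepatocyte transcripts there were 6 of 10, against 21.7% of all genes: Car14 (amplitude 0.24), Slc4a11 (0.31), Car2 (0.13), Slc4a10 (0.15), Car12 (0.20) and Slc4a5 (0.15). In that fit the rhythm difference was again called for Slc4a11 alone, against 4.79% of all genes, and none of the 10 was called in SCNx.

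**Figure D4:**
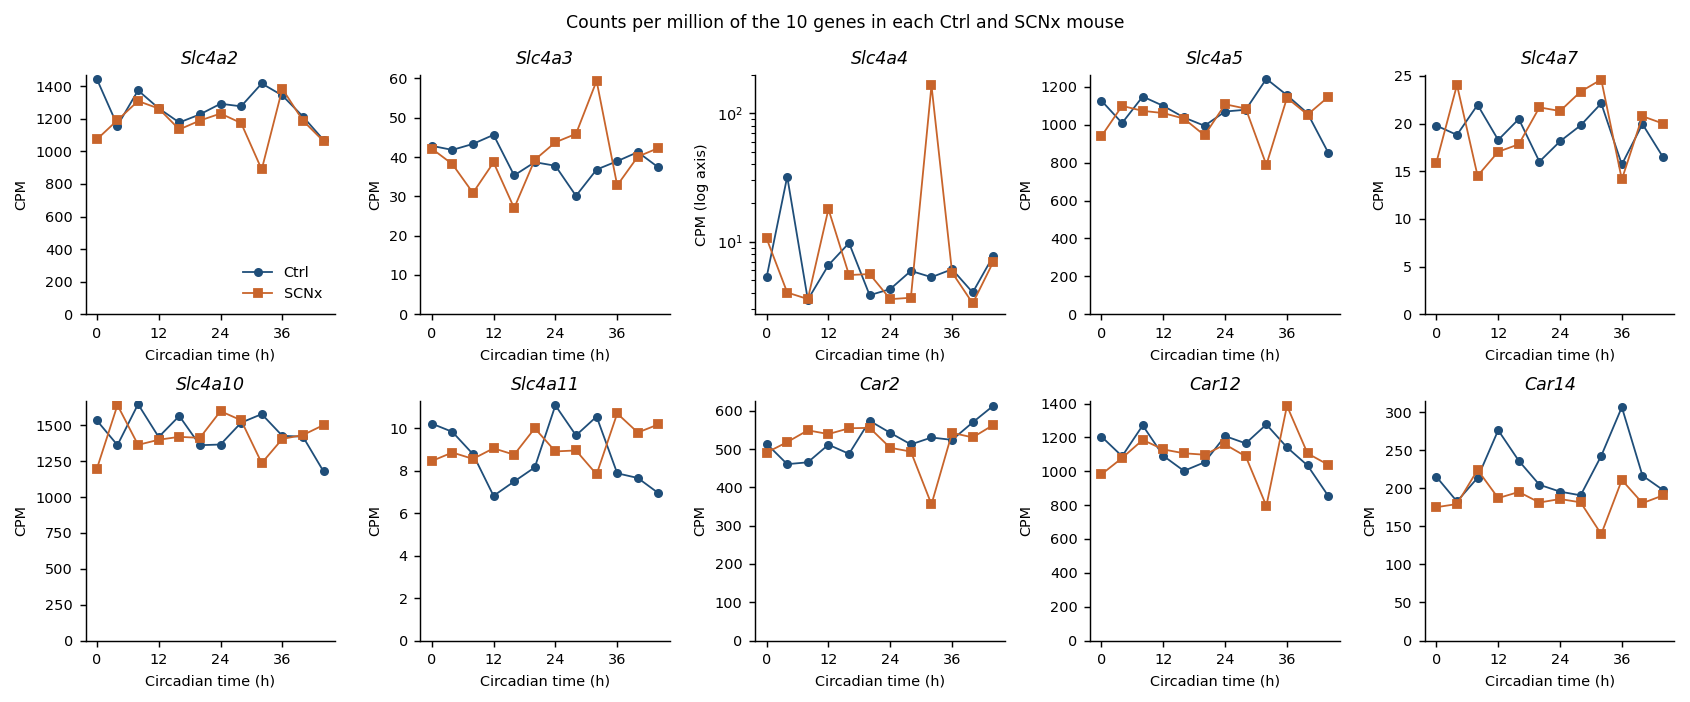
CPM of each gene in every Ctrl (circles) and SCNx (squares) mouse against circadian time in h, with 1 mouse per point and a log axis for Slc4a4. Slc4a11 is at 8.79 to 11.1 CPM in Ctrl mice of both subjective days and at 6.82 to 8.17 CPM in those of both nights, Car14 peaks at CT12 and CT36 in Ctrl, and SCNx CT32 is the lowest point for Slc4a2, Slc4a5, Car2, Car12 and Car14.

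**Figure D5:**
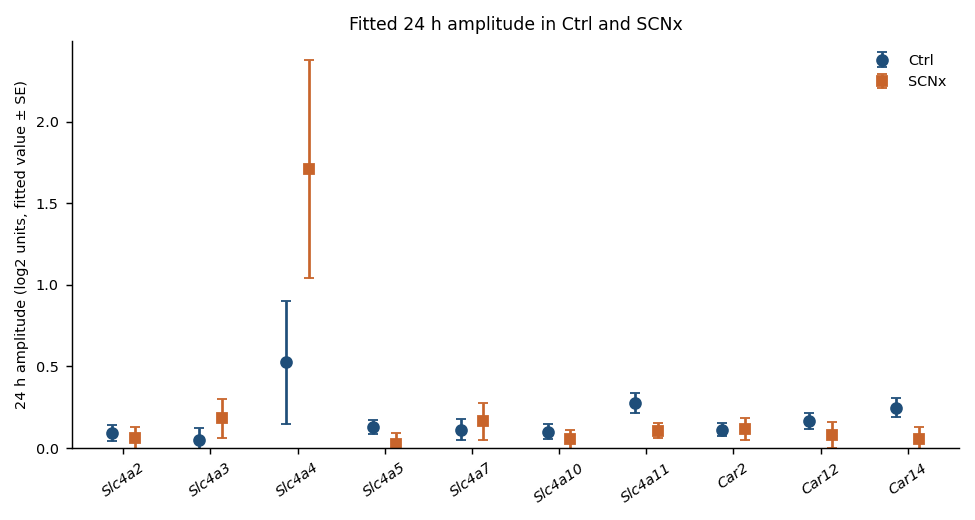
Fitted 24 h amplitude in log2 units (edgeR) for each gene in Ctrl (circles) and SCNx (squares), with an SE from a separate least-squares fit to log2 CPM. The amplitudes of Slc4a11 and Car14 in Ctrl (0.28 and 0.25) exceed those in SCNx (0.11 and 0.06), and the amplitude of Slc4a4 in SCNx (1.71) rests on SCNx CT32.

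Promoter windows were looked at for the binding motifs of clock and glucocorticoid signalling. RefSeq promoter windows (GRCm38.p6) were found for 8 of the 10 genes, and the 250 bases before each start were searched on both strands for the E-box (CACGTG), the E-prime box (CACGTT), the D-box (TTATGTAA), the core site of REV-ERB and ROR receptors (TAGGTCA) and the full glucocorticoid response element. Of 32851 windows of the same length, 6.02% held the E-box, 3.85% the E-prime box, 0.819% the D-box, 2.23% the receptor site and 0.00913% the glucocorticoid element. Only exact matches were counted, and the glucocorticoid element had them in 3 of these windows. A window without an exact match can therefore still hold a similar site, and the presence of near matches was not tested. The sole exact match among the 8 genes was a receptor site in the window of Slc4a7, a gene without a called rhythm. The window of Car14, which was called rhythmic, held no exact match to any of these motifs. Both are printed 5′ to 3′ on the strand of the gene, with that site, here in its reverse complement, in capitals.
Slc4a7, chr14:14718534-14718783, plus strand: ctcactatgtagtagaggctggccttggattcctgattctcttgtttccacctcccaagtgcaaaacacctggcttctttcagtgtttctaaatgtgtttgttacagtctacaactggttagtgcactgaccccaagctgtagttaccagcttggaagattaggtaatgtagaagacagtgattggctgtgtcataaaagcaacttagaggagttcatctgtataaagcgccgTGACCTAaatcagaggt
Car14, chr3:95904686-95904935, minus strand: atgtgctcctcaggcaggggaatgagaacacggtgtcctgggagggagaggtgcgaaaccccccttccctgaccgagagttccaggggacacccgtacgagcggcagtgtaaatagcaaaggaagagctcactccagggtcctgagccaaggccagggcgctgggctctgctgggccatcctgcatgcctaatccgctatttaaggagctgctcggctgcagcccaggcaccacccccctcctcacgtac

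The genes were then compared with each other across the 24 wild-type libraries, as a description by Pearson's r of log2 CPM. Of 45 pairs, 4 had r over 0.7: Slc4a2 with Car12 (0.89), Slc4a5 with Car12 (0.84), Slc4a2 with Slc4a5 (0.80) and Slc4a5 with Slc4a10 (0.76). Without the 4 libraries named above r was 0.82, 0.73, 0.61 and 0.73 for these pairs over 20 libraries. Again 4 pairs were over 0.7, with Slc4a7 and Slc4a10 (0.50 over 24 libraries, 0.704 over 20) in place of Slc4a2 and Slc4a5. Slc4a4 and Car2 had r of -0.70 over 24 libraries and 0.29 over 20. Slc4a10 and Car2 went the other way, from 0.01 to -0.80. Car2 with Slc4a5, Car12 and Slc4a2 likewise turned from 0.31, 0.29 and 0.38 to -0.63, -0.58 and -0.51. The libraries share depth scaling and tissue composition, which such values also follow.

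Over all tested genes, the closest profile to Slc4a2 was that of Slc12a4, a potassium-chloride cotransporter (r = 0.95), followed by Mmp15 (0.93) and Tm7sf3 (0.92). Slc4a3 was closest to Tspoap1 (0.95), Clasrp (0.94) and Arglu1 (0.94), and Slc4a7 to Gm38394 (0.92), Scai (0.90) and Bmpr2 (0.89). Slc4a5 was closest to Slc31a1, a copper transporter (0.92), Atp2a3 (0.91) and Stim1 (0.91), and Slc4a10 to Lepr, the leptin receptor (0.90), Atp2b3, a plasma membrane calcium pump (0.89), and Abca2 (0.87). Slc4a11 was closest to Hk1, a hexokinase (0.83), Sipa1l3 (0.81) and Lpcat2 (0.80). Car2 was closest to Ube2z (0.92), Pgk1, a glycolytic enzyme (0.91), and Atp5g1 (0.90), Car12 was close to Erlin2 (0.92) and Slc16a9 (0.90), and Car14 was closest to Slc19a1, the reduced folate carrier (0.92), Tmem38a (0.90) and Sfrp5 (0.89). Slc4a4 was closest to the neural genes Ntrk3 (0.96), Susd4 (0.95) and Ank2 (0.95), with r of 0.86, 0.84 and 0.73 without Ctrl CT4 and SCNx CT32. Without the same libraries r of Car2 with Ube2z, Pgk1 and Atp5g1 was 0.80, 0.75 and 0.73. For the other genes the lowest such value was 0.80 (Slc4a11 with Sipa1l3).

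Of 42 further genes of the pathway, 25 were tested: 1 of 3 other SLC4 genes, 8 of 13 other carbonic anhydrases, 5 of 11 SLC26 anion transporters, 3 of 6 genes of other acid and anion transport and 8 of 9 regulators of these transporters. None of the 25 passed the level test (0% of all genes), and 3 were rhythmic in Ctrl, against 10.7% of all genes. None was rhythmic in SCNx (0%), and 1 differed in rhythm, against 2.12% of all genes. Ahcyl1, which encodes IRBIT, an activator of sodium-bicarbonate cotransporters, was rhythmic in Ctrl with an amplitude of 0.16 ± 0.02 and a peak at 12.7 h (adjusted p = 0.00177). Its values were 334 to 433 CPM in Ctrl and 362 to 410 CPM in SCNx, and its rhythm differed between the groups (adjusted p = 0.0412), a call that was lost on leaving out any of 17 single libraries. Wnk4, a kinase upstream of ion transporters, had a Ctrl amplitude of 0.35 ± 0.10 and a peak at 13.1 h (adjusted p = 0.0188) and ranged from 17.4 to 38 CPM, a call that was lost without Ctrl CT12 or CT36. Car10, a related protein without enzyme activity, had a Ctrl amplitude of 0.25 ± 0.05 and a peak at 4.67 h (adjusted p = 0.00702) and ranged from 63.1 to 103 CPM. The rank test in Ctrl called Ahcyl1 (q = 0.021) but neither Wnk4 nor Car10 (q = 0.0755 each).

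The other further genes named here, by their Ctrl level, passed none of the tests. Slc4a8, a sodium-driven chloride-bicarbonate exchanger, was at 46.4 ± 3.0 CPM (SD, n = 12) in Ctrl. Car13 and the mitochondrial Car5b were at 17.7 ± 2.45 and 15.2 ± 1.09 CPM. Slc26a2 was at 57.9 ± 11.4 CPM, Slc26a7 at 19.2 ± 3.74 CPM and Slc26a11 at 5.44 ± 0.573 CPM. The sodium-proton exchangers Slc9a2 and Slc9a5 were at 3.21 ± 2.83 and 2.23 ± 0.651 CPM. Ahcyl2, a relative of IRBIT, and Stk39, the SPAK kinase, were as abundant as the leading transporters, with 1588 ± 75.3 and 938 ± 49.5 CPM, and the kinase Wnk1 was at 376 ± 33.2 CPM. Car3, singled out after its values were seen, was at 223 CPM in the hepatocyte-rich library SCNx CT0.

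The last comparison set the 2 KO mice beside the wild-type groups, with no test, since there was 1 mouse per time. Arntl, the gene targeted in the KO, was at 10.6 CPM at ZT7 and 9.36 CPM at ZT18, against 2.01 to 39.4 CPM in Ctrl. Whether its remaining counts fall in the deleted part was not examined. Nr1d1 was at 30.1 and 52.6 CPM and Dbp at 60.7 and 77.5 CPM. Among the 10 genes, Slc4a10 was at 1400 CPM at ZT7 and 1210 CPM at ZT18, within the Ctrl range, whereas Slc4a5 at 683 and 731 CPM, Slc4a2 at 521 and 672 CPM, Car2 at 407 and 335 CPM, Car12 at 316 and 367 CPM and Car14 at 109 and 110 CPM lay below every Ctrl mouse. Slc4a11 was at 1.66 and 2.71 CPM, from 29 and 49 counts. Slc4a3 was at 23.4 and 34.1 CPM and Slc4a7 at 23.9 and 26.5 CPM. These levels were obtained with another kit, the epithelial marker sum was lower in both KO libraries, and mitochondrial genes held 25.1% and 21.8% of their counts against 3.92% to 8.77% in the wild-type libraries. They were therefore not compared as an effect of genotype, and the part of these differences in the levels was not tested.

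None of the 10 genes differed over 2-fold between the KO mice of ZT18 and ZT7, against 4.27% of all 15050 genes compared. These ratios were scaled by TMM over both KO libraries, whereas the KO levels above are per total counts. On total counts, a scaling chosen after seeing the data, the median of all genes was higher by 0.14 (log2), and none of the 10 differed over 2-fold. Scaled by TMM, the ratio of ZT18 to ZT7 was -0.42 for Car2, with a 95% interval from counting alone of -0.47 to -0.37, and -0.35 for Slc4a10 (-0.38 to -0.32), both on the log2 scale. It was 0.23 for Slc4a2 (0.19 to 0.27) and 0.40 for Slc4a3 (0.22 to 0.59), and between -0.12 and 0.08 for Slc4a4, Slc4a5, Slc4a7, Car12 and Car14. For Slc4a11 it was 0.55, with an interval of -0.13 to 1.28 that includes 0. On total counts the ratios were -0.28 for Car2, -0.21 for Slc4a10, 0.37 for Slc4a2, 0.54 for Slc4a3 and 0.69 for Slc4a11, and those of Car14 and Slc4a5 turned from -0.12 to 0.02 and from -0.04 to 0.10. These intervals leave out the spread between mice. Beside them stood the Ctrl mice at bracketing times (CT16, CT20, CT40 and CT44 less CT4, CT8, CT28 and CT32; mean log2 difference ± SE, 4 mice per side): -0.36 ± 0.07 for Slc4a11, -0.29 ± 0.09 for Car12, 0.19 ± 0.09 for Car2, -0.15 ± 0.10 for Slc4a10, -0.15 ± 0.08 for Slc4a2, 0.02 ± 0.13 for Slc4a3 and 0.05 ± 0.11 for Car14, whose peak falls between the sampled windows. With CT16 and CT40 less CT8 and CT32 alone, the difference of Car2 was 0.09. In SCNx the same differences were 0.18 ± 0.07 for Slc4a11, 0.08 ± 0.13 for Car12, 0.22 ± 0.14 for Car2, 0.01 ± 0.09 for Slc4a10, 0.02 ± 0.13 for Slc4a2, -0.21 ± 0.25 for Slc4a3 and 0.06 ± 0.14 for Car14. The SCNx day side holds CT32, the lowest wild-type library for Slc4a2, Car2, Car12 and Car14 and the highest for Slc4a3. No SCNx difference was computed without CT32, and no Ctrl difference without both CT4 and CT16.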

How the data were processed

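RNA of 4th ventricle ChP was sequenced in 24 wild-type and 2 KO samples. The deposited values are estimated counts per gene in 1 column per sample. The submitters' processing notes name cutadapt 3.4, STAR, Salmon 1.9.0, SAMtools 1.16.1 and StringTie 2.2.1. Counts were rounded to whole numbers. Genes with a mean of at least 1 CPM in each group were kept, scaled by TMM and tested with edgeR 4.0.16 quasi-likelihood fits (R 4.3.3). Level was tested by group means, and rhythm and its difference by a 24 h cosine per group. Each fit held the 24 wild-type libraries together, with a shared estimate of the spread. P-values were adjusted over all 13697 genes by the Benjamini-Hochberg method. CPM used TMM-scaled library sizes in wild-type samples and total counts in KO, and logarithms had a prior count of 1. KO day-night ratios were scaled by TMM over both KO libraries. Each mouse is 1 replicate with 1 library. The spread behind the p-values thus joins differences between mice, dissection and library preparation with departures from the fitted curve, which cannot be told apart. In the level test it also holds changes over circadian time. The lowest count of any of the 10 genes was 138 in a wild-type and 29 in a KO library.

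Alternatives were DESeq2 1.42.0, its size factors in edgeR, limma-trend (limma 3.58.1), other count minimums, a linear trend, a block on circadian time, a rank test against 132 templates of 24 h period with 1000000 random orders, and leaving out libraries. The fit without 4 libraries together, the one with TMM factors over all genes and the KO ratios on total counts were chosen after seeing the data. The fits were tested on simulated data. The genes and lists were chosen with earlier results of these data known. Named further genes were all past the threshold in any test and otherwise the 3 with the highest Ctrl level of each list, and for each of the 10 genes the 3 tested genes of highest r. Of the genes that these rules name, 2 are not reported here. Transcript lengths were from GENCODE M21, and promoter sequences were from RefSeq on GRCm38.p6, leaving out chromosome 18.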

Additional observations from a re-analysis of the deposited data

Results flagged for a closer look

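Of the genes reported here, 5 had a 24 h rhythm that differed between Ctrl and SCNx by the test of the difference itself (edgeR, adjusted over all genes). Slc4a11 had adjusted p = 0.0311, with a Ctrl amplitude of 0.28 and a SCNx amplitude of 0.11 (log2), and Ahcyl1 had adjusted p = 0.0412, with amplitudes of 0.16 and 0.03. Over 35 alternatives the call was lost in 9 for Slc4a11 (adjusted p up to 0.218) and in 21 for Ahcyl1 (up to 0.385). The clock genes used to check the sampling times were past the threshold by a wider margin: Arntl with adjusted p = 0.000384, Dbp with 0.000686 and Nr1d1 with 0.000229.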

How the results depend on the processing

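The level count was 0 of the 10 genes under all alternatives run, where at most 0.102% of all genes were called. With no filter on low counts the rhythm counts were 1 in Ctrl (Car14), 1 in SCNx (Slc4a4) and 0 for the difference. Of all genes, 2.77%, 3.44% and 1.62% were then called. That fit was not run without SCNx CT32, the library with the highest Slc4a4. The rank test called 1 in Ctrl (Car14), against 6.74% of all genes. TMM factors over all genes, chosen after seeing the data, gave 1 in Ctrl (Slc4a11), against 9.13%, and 0 for the difference, against 1.72%. The linear trend and the fit without Ctrl CT16 and SCNx CT0 each gave 0 for the difference, against 2.49% and 1.57% of all genes. Leaving out 1 library gave 1 to 3 in Ctrl (6.7% to 16.6% of all genes) and 0 to 1 for the difference (1.19% to 3.44%). Without the 4 libraries together, also chosen after seeing the data, there were 6 in Ctrl, against 21.7% of all genes. The cause of these changes was not tested.

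Changes in level that turned sign were small apart from Slc4a4 (-0.30 without SCNx CT32). Slc4a3 was at -0.038 without SCNx CT32, -0.028 without Ctrl CT4 and SCNx CT32, and -0.053 without the 4 libraries. Slc4a10 was at 0.0012 without SCNx CT0, 0.012 without Ctrl CT16 and SCNx CT0, and 0.026 without the 4. Car2 was at 0.011 without SCNx CT32, and Car12 was at 0.0055 there, 0.0027 without Ctrl CT4 and SCNx CT32, and 0.0093 without the 4.

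Mice of the same circadian time were not clearly alike: of 12 same-time pairs, 5 had deviations correlated over 0.1 (range -0.44 to 0.33). Only 1 of the 12 Ctrl mice was closest to the SCNx mouse of its own time. Since the groups differ in rhythm, these values cannot tell whether mice were handled in pairs. With circadian time as a replicate block, the rhythm difference was called for 0 of the 10 genes (Slc4a11 at adjusted p = 0.218), the level count did not change, and 98 genes differed in rhythm in place of 291. Over all genes, DESeq2 called 14 for level, 432 for rhythm in SCNx and 589 for the difference, and no filter gave 1384 and 654 for the last pair. The Ctrl rhythm count was 918 without Ctrl CT44 and 2901 without the 4 libraries.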
